A study of Mus musculus with 4 samples.

Results

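The genes Il4, Il13, Ifng, Tnf, Csf1, Csf2, Ltb and Il17a encode secreted or membrane-bound cytokines, and their transcripts were followed one by one through thymic invariant natural killer T (iNKT) cells. They were picked by gene symbol, as 8 of the 31053 genes in the count matrices, and each symbol matched 1 row. Single cells from the thymi of 4 untreated mice were profiled with droplet 5′ chemistry, 1 library per mouse. The groups were 2 wildtype C57BL/6 mice and 2 Hivep3-/- mice, all between 8 and 9 weeks of age. Hivep3 encodes a zinc finger protein, and the Hivep3-/- line had been backcrossed to C57BL/6. In every library the cells were PBS57-CD1d tetramer-positive thymocytes, mixed from CD44low and CD44high sorts in equal parts of 50%, so the sort set part of the share of each kind of cell. No cell had been stimulated. The C57BL/6 mice came from a vendor and the Hivep3-/- mice from another laboratory's line, so genotype and origin cannot be told apart.

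iNKT cells carry a nearly fixed T cell receptor (TCR) for lipids on CD1d and leave the thymus already able to secrete cytokines, which conventional T cells acquire only after priming. Developing cells pass from a CD24-high stage 0 through a dividing stage and settle into 3 effector kinds. iNKT1 cells resemble T helper 1 cells and make interferon-γ, iNKT2 cells make interleukin-4 (IL-4) and IL-13, and iNKT17 cells make IL-17. IL-4 released in the thymus is known to act on neighbouring thymocytes. In many lymphocytes cytokine genes are transcribed in short bursts after TCR signalling, through NFAT, AP-1 and NF-κB together with lineage factors such as GATA3, T-bet and RORγt.

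On the mm10 (GRCm38) assembly Il4 lies on the minus strand of chromosome 11 from 53602982 to 53618669, and Il13 on the same strand from 53631324 to 53634702. Their start sites are 16 kb apart, within the type 2 cytokine cluster that also holds Il5, Rad50 and Kif3a. Csf2 lies on the same chromosome from 54247271 to 54249667. Tnf (chromosome 17, 35199381 to 35202007) and Ltb (35194439 to 35196320) neighbour each other on opposite strands, with start sites 7.6 kb apart. Ifng runs from 118441046 to 118445892 on chromosome 10, Csf1 from 107741048 to 107760469 on chromosome 3 and Il17a from 20730905 to 20734496 on chromosome 1. All 8 are annotated as protein coding. The 250 bases upstream of the start are printed for the 3 genes whose transcripts fell in Hivep3-/- libraries over all cells (RefSeq, GRCm38.p6, 5′ to 3′ on the gene's strand). They are chr11:53618666-53618915, minus strand, for Il4, then chr11:53634703-53634952, minus strand, for Il13, and chr3:107760470-107760719, minus strand, for Csf1. Capitals mark matches on either strand, first to GGAAA, the core that NFAT proteins bind. A GATA core, searched as AGATA, is marked in the same way. Capitals also mark the AP-1 motif, made of TGA, any 1 base and then the letters TCA. The last motif searched, called κB-like, starts with GGG and after any 2 bases ends in the reverse complement of the NFAT core, which it therefore contains.
Il4: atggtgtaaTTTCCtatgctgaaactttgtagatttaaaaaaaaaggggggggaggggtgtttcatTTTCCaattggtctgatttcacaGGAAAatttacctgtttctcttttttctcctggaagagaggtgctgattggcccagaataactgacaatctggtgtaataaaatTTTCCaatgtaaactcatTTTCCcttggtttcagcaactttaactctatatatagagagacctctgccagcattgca
Il13: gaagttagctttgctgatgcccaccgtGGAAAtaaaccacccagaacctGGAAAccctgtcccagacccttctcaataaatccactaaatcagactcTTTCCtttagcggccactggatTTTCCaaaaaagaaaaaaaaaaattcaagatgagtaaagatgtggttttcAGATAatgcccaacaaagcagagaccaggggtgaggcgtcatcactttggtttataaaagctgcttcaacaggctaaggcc
Csf1: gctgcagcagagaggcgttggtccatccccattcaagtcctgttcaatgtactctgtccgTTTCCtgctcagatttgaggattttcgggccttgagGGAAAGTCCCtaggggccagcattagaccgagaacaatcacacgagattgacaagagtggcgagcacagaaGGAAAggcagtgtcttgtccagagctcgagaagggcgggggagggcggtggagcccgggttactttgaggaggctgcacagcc
The Il4 window held 5 NFAT cores and none of the other 3 motifs, and the Il13 window 4 NFAT cores and 1 GATA core. The Csf1 window held 3 NFAT cores, of which 1 lies inside its 1 κB-like match. Among 32851 upstream windows of the same length, 55.6% held the NFAT core, 26.6% the GATA core, 6.75% the AP-1 motif and 1.41% the κB-like motif. The other 5 genes had between 0 and 3 NFAT cores, Csf2 had 3 GATA cores and Ifng 1, Il17a had the 1 AP-1 match, and Ltb had 1 κB-like match. A match is a stretch of letters, not a measured binding site.

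The matrices held 4243 to 8374 cell barcodes per library, of which 7231 and 3651 (C57BL/6 replicates 1 and 2) and 4598 and 4167 (Hivep3-/- replicates 1 and 2) were kept. Median depth was lower in C57BL/6, at 4596 and 5268 unique molecular identifiers (UMIs) per cell against 6833 and 6491, so shares of cells were computed after every cell was thinned to 2000 UMIs. Between 26 and 58 barcodes were shared by a pair of libraries. Xist was at 324 UMIs per 1000000 UMIs of the library (CPM) in C57BL/6 replicate 1 and under 1 CPM in the other libraries, and Ddx3y was at 0 there and at 44.5 to 50.6 CPM in the other 3. By these genes C57BL/6 replicate 1 came from the only female mouse, although the study's text describes the C57BL/6 donors as female. The part of sex in the differences was not tested, so genotype differences that change without that library are given without it. The terms that set the genotype differences of classes against each other were not refitted without it. Hivep3 itself was not lower in the libraries labelled Hivep3-/- (101 and 68.0 CPM against 38.5 and 36.4), and 5′ counts do not show which exons were present, so the transcript gives no check of the genotype labels. Summed B cell, double positive thymocyte and myeloid markers over all cells reached 31.7 to 54.4, 10.6 to 29.7 and 135 to 200 CPM, with 2 of the 6 myeloid markers at 0 in every library, and the part of other cells in the results was not tested.

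Clusters were named from marker genes, none of them a cytokine gene, and the 8 genes were kept out of the clustering. Cluster 1 (Il6ra, Il17rb) was called iNKT2-like and cluster 9 (Il23r, Il1r1, Ccr6) iNKT17-like. Clusters 0, 2, 7 and 15 formed the iNKT1-like class, clusters 5, 10, 12 and 14 the cycling-like class, and clusters 8 and 11 the stage 0-like class. Only cluster 11 had Cd24a as its leading gene, and 2 double positive thymocyte markers were among its top 50 genes. Clusters 3, 4, 6 and 13 stayed unnamed. Each droplet also got a doublet score for the risk that it held several cells. Of clusters 6 and 14, 21.7% and 17.2% of cells were in the top 5% of scores of their library. Fits of single clusters were not repeated without such cells. The classes are rebuilt here, so their cells need not be the study's.

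The transcripts were distributed by class. Ltb was found in nearly every kind of cell outside stage 0. Il4 was highest in iNKT2-like cells, Il13 in cycling-like and iNKT2-like cells, Ifng in iNKT1-like cells and Il17a in iNKT17-like cells. Tnf was even across the mature classes, while Csf1 and above all Csf2 were sparse. Counts were summed per library and class and compared between genotypes by edgeR's quasi-likelihood test, and p-values were adjusted after Benjamini and Hochberg over every gene that could be fitted in the class (called: adjusted p under 0.05). Each p rests on 2 mice per genotype, and the spread of a gene between them was moderated by that of the other genes in the fit. In such sums, fewer cells with a transcript and fewer transcripts per cell cannot be told apart.

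**Figure D1:**
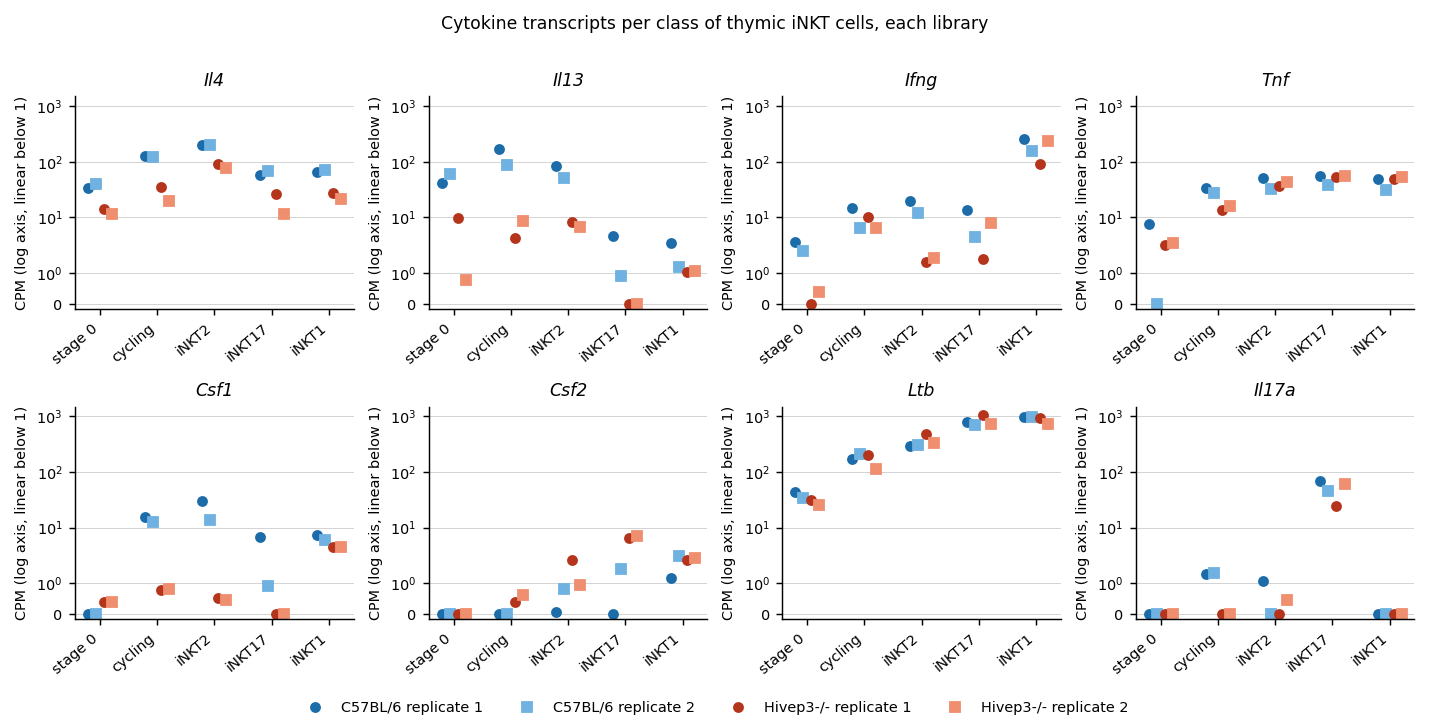
Level of each of the 8 genes (CPM, on a log axis that is linear below 1) in the 5 named classes, 1 point per library, with circles for replicate 1 and squares for replicate 2. Il4 points of the Hivep3-/- libraries (red) lie below those of the C57BL/6 libraries (blue) in every class, whereas Tnf points mix in stage 0-like, iNKT2-like and iNKT17-like cells.

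None of the 8 genes was called higher in Hivep3-/- cells in any class. Over all cells 3 of the 8 genes were called lower (Il4, Il13 and Csf1), against 0.325% of 12291 genes, and the median log2 difference of the 8 was -0.46 against 0.03 for all genes. The libraries differed in class make-up. iNKT2-like cells were 21.7% and 13.01% of the C57BL/6 libraries against 8.46% and 10.7% of the Hivep3-/- ones. Cycling-like cells were 15.8% and 10.4% against 4.39% and 8.59%, and stage 0-like cells 5.03% and 3.37% against 8.2% and 9.98%. Shares of iNKT17-like and iNKT1-like cells overlapped. The part of class make-up in the differences over all cells was not tested. Cycling-like and iNKT2-like cells each had 4 of 6 tested genes called lower, where 2.04% and 0.362% of all genes were. Stage 0-like cells had 1 of 3 (0.359% of all genes) and iNKT1-like cells 1 of 7 (0.192%). In iNKT17-like cells none of 4 was called by edgeR, of which Il4 alone had an unadjusted p under 0.05, where 0.0394% of all genes were called lower and 423 of 7619 genes had an unadjusted p under 0.05. DESeq2 gave an adjusted p to only 1 of the 8 there, Ltb, and did not call it. Genes left out of a class had too few counts there: Ifng, Tnf, Csf1, Csf2 and Il17a in stage 0-like cells, Csf2 and Il17a in cycling-like and iNKT2-like cells, Il13, Ifng, Csf1 and Csf2 in iNKT17-like cells, and Il17a in iNKT1-like cells. Markers listed for other cells moved with genotype in the same classes. The 7 B cell markers summed to 30.2 and 20.4 CPM in C57BL/6 cycling-like cells against 7.91 and 7.57 CPM in Hivep3-/- ones, and to 73.4 and 42.2 against 22.1 and 34.5 CPM in iNKT2-like cells, with 3 to 5 of the 7 at 0 in each library. The 7 double positive thymocyte markers were higher in Hivep3-/-, at 23.4 and 10.5 against 43.9 and 34.0 CPM in cycling-like cells and at 3.11 and 3.66 against 21.8 and 23.6 CPM in iNKT1-like cells, with up to 5 of the 7 at 0. The 6 myeloid markers were higher in Hivep3-/- in all named classes but stage 0-like cells, for example 157 and 152 against 245 and 251 CPM in iNKT1-like cells. Tyrobp, which is among them, was a leading gene of cluster 2, an iNKT1-like cluster. That cluster was 6.47% and 7.7% of the C57BL/6 libraries and 17.6% and 17.9% of the Hivep3-/- ones. Cd74, a B cell marker here, was a leading gene of the iNKT2-like cluster at resolution 0.4. These sums can therefore hold transcripts of the iNKT cells themselves. The part of other cells in the differences was not tested.

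**Figure D2:**
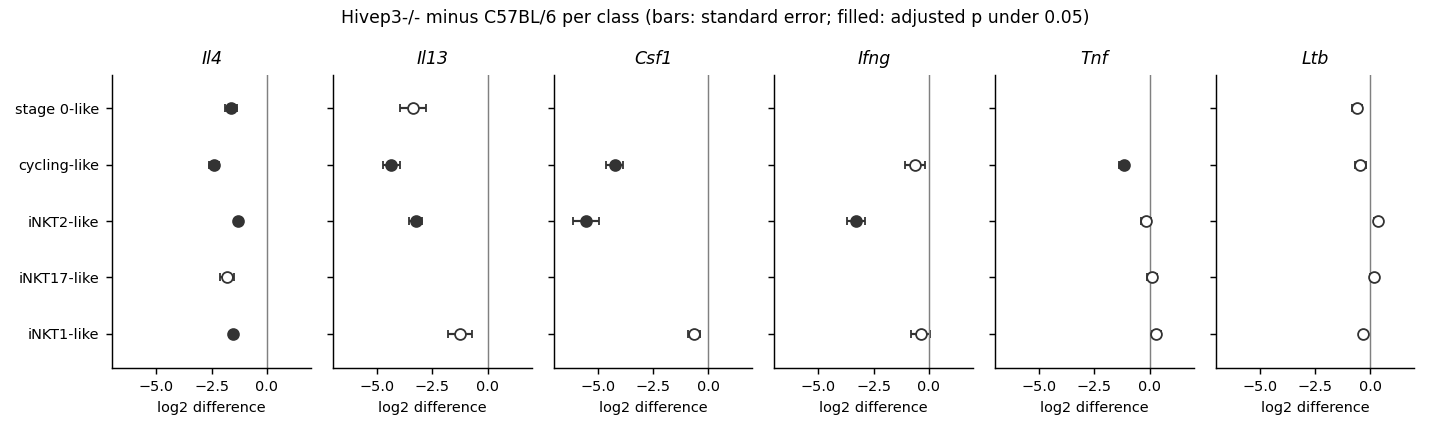
Log2 difference of Hivep3-/- minus C57BL/6 for 6 genes in each class, with bars for the standard error and filled points for adjusted p under 0.05. Il4 lies between -2.38 and -1.30 in all 5 classes, while Csf1 runs from -5.53 in iNKT2-like cells to -0.65 in iNKT1-like cells.

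Il4 encodes the cytokine that drives type 2 responses. In iNKT2-like cells its level was 198 CPM in both C57BL/6 libraries and 92.8 and 78.0 CPM in Hivep3-/- replicates 1 and 2, and the libraries of the genotypes did not overlap. The log2 difference was -1.30 (standard error, SE, 0.13; adjusted p = 0.00611). After thinning, 25.3% and 27.1% of C57BL/6 iNKT2-like cells had an Il4 UMI against 11.9% and 12.98% in Hivep3-/-. At full depth the shares were 56.2% and 65.7% against 36.5% and 40.7%, with median depths of 7911.5 and 10135 against 9334 and 9017 UMIs. For such shares of libraries the smallest two-sided p of an exact permutation test with 2 against 2 is 0.3333, which every gap without overlap reached. Positive iNKT2-like cells also held fewer Il4 UMIs each in Hivep3-/-, at 2.49 and 1.82 on average against 2.83 and 3.1. As a background, none of the 85, 37, 145 and 143 thinned cells of cluster 11 had an Il4 UMI, which allows shares of up to 3.53%, 8.11%, 2.07% and 2.10%. Such a limit for a count of 0 is 3 cells over the number of cells, and like all intervals here it covers counting error only.

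The reduction of Il4 was not particular to iNKT2-like cells. Cycling-like cells had 128 and 121 CPM in C57BL/6 and 35.2 and 20.1 CPM in Hivep3-/- (log2 difference -2.38, SE 0.23, adjusted p = 0.00199). iNKT1-like cells had 64.5 and 69.9 against 27.9 and 21.3 CPM (-1.52, SE 0.16, adjusted p = 0.0065). Both calls held under all 12 alternative settings, while that in iNKT2-like cells was lost when either Hivep3-/- library was left out (adjusted p up to 0.0925). Stage 0-like cells had little Il4, at 33.9 and 39.5 against 14.1 and 11.4 CPM (-1.63, SE 0.28, adjusted p = 0.0488), and 7 of 12 alternatives ended that call. Apart from 3 UMIs in cluster 11, the Il4 of this class came from cluster 8, where the log2 difference was -1.54 (adjusted p = 0.0201; 0.608% of genes called lower) and was called without each library in turn, in fits where the genotype left with 1 mouse is assumed to vary as the other does. iNKT17-like cells had 58.5 and 67.1 against 26.5 and 11.5 CPM, a log2 difference of -1.80 (SE 0.32, adjusted p = 0.11) with no overlap between the genotypes. Set directly against the iNKT1-like difference in a model with library as a block, the Il4 difference of iNKT2-like cells was no larger or smaller beyond error (0.18, SE 0.12, adjusted p = 0.448), and that of cycling-like cells lay below it by -0.88 (SE 0.17, adjusted p = 0.0115).

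Within the iNKT1-like class Il4 fell in both main clusters. In cluster 0 (Klrc1, Klrk1 and Fgl2 high), levels were 70.8 and 78.9 against 40.4 and 36.7 CPM (log2 difference -1.04, adjusted p = 0.0274; 0.172% of genes called lower). In cluster 2, whose leading genes Ccl5 and Gzma mark late iNKT1 cells, they were 35.5 and 16.1 against 5.73 and 3.22 CPM (-2.59, adjusted p = 0.0142; 0.154%). The call of cluster 2 was lost without C57BL/6 replicate 1 (adjusted p = 0.59) and that of cluster 0 without either C57BL/6 library or Hivep3-/- replicate 1. Cluster 2 made up 17.6% and 17.9% of the Hivep3-/- libraries but 6.47% and 7.7% of the C57BL/6 libraries, so the class held unlike mixtures of clusters in the genotypes. Among the unnamed clusters, Il4 fell in cluster 6 (Htra3 and Tnni1 high; 123 and 84.6 against 31.2 and 18.8 CPM; 1.51% of genes called lower) and in cluster 4 (Gzmb high; 47.1 and 56.1 against 23.8 and 19.8 CPM; 0.122%). It was not called in cluster 3, at 99.5 and 127 against 52.8 and 61.1 CPM (adjusted p = 0.0692; 0.103%).

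Il13 encodes the sister cytokine of IL-4. Its level was highest in cycling-like cells, at 167 and 87.5 CPM in C57BL/6 replicates 1 and 2 and 4.35 and 8.6 CPM in Hivep3-/- replicates 1 and 2. Both Hivep3-/- libraries lay below both C57BL/6 libraries, of which replicate 1 was the higher (log2 difference -4.35, SE 0.40, adjusted p = 0.00163, called under all 12 alternatives). Of thinned cycling-like cells 18.3% and 12.3% had an Il13 UMI in C57BL/6, against none of 198 (up to 1.52% allowed) and 1.4% in Hivep3-/-, and without thinning 42.8% and 36.7% against 4.46% and 5.59%. In iNKT2-like cells the levels were 84.5 and 51.6 against 8.42 and 6.82 CPM (log2 difference -3.26, SE 0.28, adjusted p = 0.00327), a call lost without either Hivep3-/- library (adjusted p up to 0.1). Over all cells Il13 was at 82.6 and 33.9 against 6.35 and 3.52 CPM (-3.66, SE 0.47, adjusted p = 0.0282), and this call too was lost without Hivep3-/- replicate 1 (adjusted p = 0.156) or replicate 2 (adjusted p = 0.0941). Cycling-like cells supplied 63.4% and iNKT2-like cells 28.7% of the Il13 UMIs of C57BL/6 replicate 1, and 60.5% and 29.1% of those of replicate 2. iNKT1-like cells had next to none, at 3.44 and 1.27 against 1.05 and 1.08 CPM. Among iNKT17-like cells 6 and 1 UMIs were counted in C57BL/6 and none in Hivep3-/-, too few for a fold.

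Stage 0-like cells also held Il13, at 41.0 and 60.5 CPM in C57BL/6 and 9.64 and 0.784 CPM in Hivep3-/-, a difference that was not called (log2 difference -3.38, SE 0.60, adjusted p = 0.058). All of it lay in cluster 8. That cluster had 52.9 and 71.5 CPM in C57BL/6 and 12.4 and 0.994 CPM in Hivep3-/- (log2 difference -3.31, SE 0.54, adjusted p = 0.0129), and the call held without each library in turn. The transcripts sat in few cells: 69 and 49 UMIs were in 14 and 6 cells in C57BL/6, and 24 and 2 UMIs in 6 and 2 cells in Hivep3-/-. Cluster 6 had 87.7 and 55.5 against 1.02 and 3.28 CPM (-5.14, SE 0.40, adjusted p = 6.97e-05), called without each library in turn, although C57BL/6 replicate 2 gave only 32 cells to it. Of its cells 21.7% were in the top 5% of doublet scores, and the part of doublets was not tested. Cluster 4 went against this pattern in 1 library only, with 2.48 and 0.382 CPM in C57BL/6 and 25.04 and 2.24 CPM in Hivep3-/- replicates 1 and 2. A single cell of Hivep3-/- replicate 1 held 121 Il13 UMIs, which was 55.8% of all Il13 UMIs of that library.

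**Figure D3:**
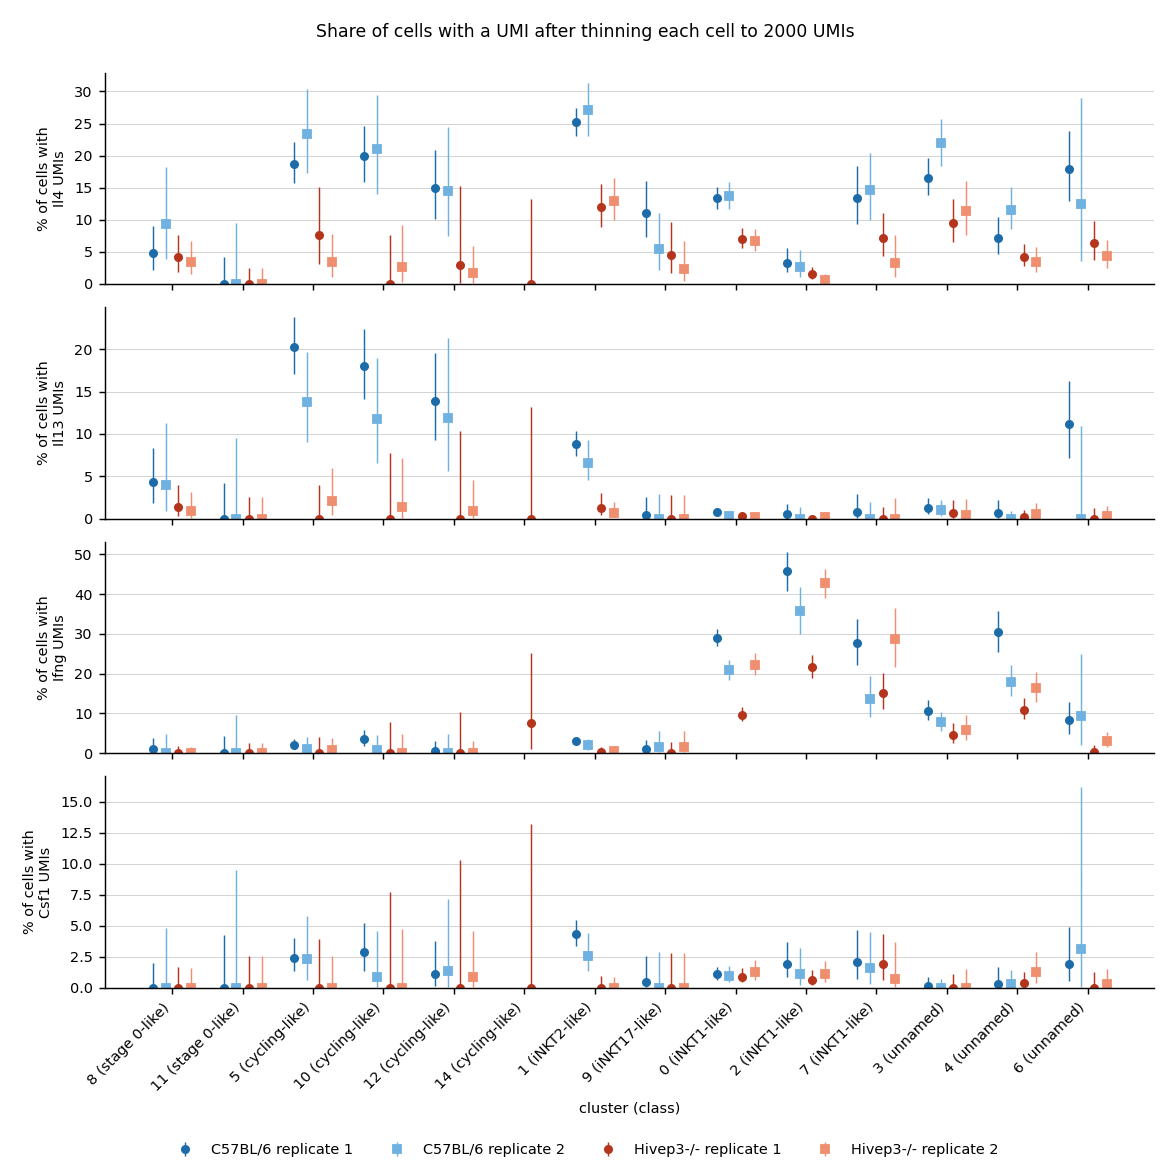
Percent of cells with a UMI of Il4, Il13, Ifng or Csf1 in each cluster after thinning to 2000 UMIs, 1 point per library with a 95% exact binomial interval, for clusters with at least 20 cells in that library. Il4 shares of Hivep3-/- cells are lower in clusters from cycling to late iNKT1, Il13 shares are at 6.61% to 8.76% in C57BL/6 cluster 1 and at most 1.3% in Hivep3-/-, and Ifng shares vary from mouse to mouse.

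Csf1 encodes macrophage colony-stimulating factor, which sustains monocytes and macrophages. In iNKT2-like cells 378 and 67 UMIs were counted in C57BL/6 (29.9 and 13.7 CPM) and 2 and 2 UMIs in Hivep3-/- (0.526 and 0.47 CPM). The fitted log2 difference was -5.53 (SE 0.60, adjusted p = 0.00774, and up to 0.216 without either Hivep3-/- library, where it was not called). Without C57BL/6 replicate 1, the higher of the C57BL/6 libraries, it was -4.80 (adjusted p = 7.2e-07). The few Hivep3-/- UMIs each lay in a cell of its own, whereas 160 and 42 C57BL/6 cells were positive and held 2.36 and 1.6 UMIs each. In cycling-like cells the levels were 15.3 and 12.5 against 0.791 and 0.819 CPM, from 215, 75, 2 and 4 UMIs (log2 difference -4.23, SE 0.39, adjusted p = 0.00163, called under all 12 alternatives). Cluster 6 had 38 and 6 against 4 and 7 UMIs, a log2 difference of -3.57 (adjusted p = 0.00197) that was not called without C57BL/6 replicate 1 (adjusted p = 0.225).

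In iNKT1-like cells Csf1 differed far less. Levels were 7.32 and 6.05 CPM in C57BL/6 and 4.48 and 4.52 CPM in Hivep3-/- (log2 difference -0.65, SE 0.26, adjusted p = 0.526). In cluster 0 they overlapped, at 4.49 and 4.31 against 4.87 and 4.05 CPM. The genotype difference of iNKT2-like cells lay below that of iNKT1-like cells by a log2 value of -4.93 (SE 0.52, adjusted p = 7.8e-06, where 5.95% of 10847 genes were called), and that of cycling-like cells did so by -3.62 (SE 0.44, adjusted p = 0.00093, where 7.61% of 11081 genes were called). The iNKT1-like class thus held 81.0% and 65.7% of the Csf1 UMIs of the Hivep3-/- libraries and 9.19% and 21.6% of those of the C57BL/6 libraries. Over all cells Csf1 was at 15.9 and 7.8 against 2.31 and 2.24 CPM (log2 difference -2.48, adjusted p = 0.0477). This call was lost without C57BL/6 replicate 1 (log2 difference -1.88) and without either Hivep3-/- library. It was also lost when the top 5% of doublet scores were removed.

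Ifng encodes interferon-γ, the cytokine that defines iNKT1 cells. Its iNKT1-like level was 258 and 156 CPM in C57BL/6 and 90.3 and 240 CPM in Hivep3-/- replicates 1 and 2. The genotypes overlapped, because Hivep3-/- replicate 1 was the lowest of the 4 and Hivep3-/- replicate 2 close to the highest (log2 difference -0.37, SE 0.44, adjusted p = 0.903). The same order held in cluster 2, at 380 and 249.4 against 136 and 330 CPM, and in cluster 0, at 229 and 141 against 58.1 and 164 CPM. After thinning, 31.8% and 22.5% of C57BL/6 iNKT1-like cells and 14.9% and 31.3% of Hivep3-/- ones had an Ifng UMI. Stage 0-like cells, which should lack it, gave 0.741% in C57BL/6 replicate 1 and none in the other 3 libraries, at median full depths of 3464.5 to 5605 UMIs against 3296.5 to 6214 in the iNKT1-like class.

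Outside the iNKT1-like class Ifng was sparse and differed between genotypes in iNKT2-like cells. These held 251 and 58 UMIs in C57BL/6 (19.9 and 11.9 CPM) and 6 and 8 UMIs in Hivep3-/- (1.58 and 1.88 CPM), the 6 UMIs in 1 cell and the 8 in 4 cells. This was a log2 difference of -3.30 (SE 0.40, adjusted p = 0.0121), and the call ended at a clustering resolution of 0.4 (-2.33, adjusted p = 0.0989) and without either Hivep3-/- library. It lay below the iNKT1-like difference by -2.94 (SE 0.28, adjusted p = 1.96e-06). Cycling-like cells had 14.9 and 6.36 against 10.3 and 6.34 CPM (log2 difference -0.63, adjusted p = 0.49), and the highest Ifng levels among them were in the 64 cells of cluster 14, at 212 and 68.2 against 68.1 and 116 CPM. Of these cells 17.2% were in the top 5% of doublet scores, and the part of doublets was not tested.

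Tnf encodes tumour necrosis factor, an inflammatory cytokine made by many activated lymphocytes. Its level in iNKT2-like cells was 50.8 and 32.3 CPM in C57BL/6 and 36.3 and 43.2 CPM in Hivep3-/-, in iNKT17-like cells 55.4 and 39.0 against 52.9 and 55.0, and in iNKT1-like cells 48.5 and 31.7 against 48.8 and 54.4. In each of these classes C57BL/6 replicate 2 was the lowest library. The genotypes overlapped in the iNKT2-like and iNKT17-like classes. In the iNKT1-like class both Hivep3-/- libraries lay above by these unscaled values, the lower of them by a small margin. After the scaling used in the fit they overlapped there too, at 49.7 and 32.5 against 45.6 and 55.7 CPM. The log2 differences of the classes were -0.16, 0.12 and 0.30 (adjusted p = 0.859, 0.979 and 0.83). Cycling-like cells were the exception, with 33.6 and 27.1 against 13.4 and 16.2 CPM and no overlap (log2 difference -1.18, SE 0.22, adjusted p = 0.0275). This call was lost without C57BL/6 replicate 1 (adjusted p = 0.136) and at resolution 1.2 (adjusted p = 0.0829). The Tnf difference of cycling-like cells was below that of iNKT1-like cells by -1.49 (SE 0.18, adjusted p = 0.00093), and that of iNKT2-like cells by -0.49 (SE 0.13, adjusted p = 0.039). In Hivep3-/- replicate 1 a single cell of cluster 15 (S1pr5 and Klrg1 high) held 43 of the 1301 Tnf UMIs of the library.

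Ltb encodes lymphotoxin-β, a membrane-bound member of the tumour necrosis factor family that signals to thymic and lymph node stroma. Its level was 971 and 957 CPM in C57BL/6 iNKT1-like cells and 917 and 717 CPM in Hivep3-/- ones (log2 difference -0.31, SE 0.15, adjusted p = 0.634), and 781 and 704 against 1050 and 730 CPM in iNKT17-like cells (0.18, adjusted p = 0.957). iNKT2-like cells had 298 and 302 against 488 and 327 CPM, a log2 difference of 0.35 (SE 0.17, adjusted p = 0.533) with the Hivep3-/- libraries above. Stage 0-like cells were lowest, at 43.4 and 34.6 against 31.7 and 25.1 CPM. After thinning 80.2%, 79.1%, 76.1% and 70.5% of iNKT1-like cells of C57BL/6 replicates 1 and 2 and Hivep3-/- replicates 1 and 2 had an Ltb UMI, and 4.56% to 8.04% of stage 0-like cells. No class difference of Ltb was called, yet the difference of iNKT2-like cells was above that of iNKT1-like cells by 0.61 (SE 0.08, adjusted p = 7.03e-05). Within the iNKT1-like class the log2 difference was -0.24 in cluster 0 and -0.02 in cluster 2. Scaled C57BL/6 means there were 1049 and 662 CPM. Cluster 2 was a larger share of the Hivep3-/- libraries than of the C57BL/6 ones, and the part of this mix was not tested.

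Csf2 encodes granulocyte-macrophage colony-stimulating factor. Over all cells, 13 and 49 UMIs were counted in C57BL/6 and 80 and 50 in Hivep3-/-, nearly all of them 1 per cell. C57BL/6 replicate 1, the largest library, had the fewest (0.289 CPM against 1.92, 2.34 and 1.6), so the genotypes overlapped (log2 difference 0.83, SE 0.76, adjusted p = 0.732). iNKT1-like cells held 11 and 22 against 38 and 29 of these UMIs, and stage 0-like cells none in any library. In iNKT17-like cells 0 and 2 UMIs stood against 7 and 8, and in iNKT2-like cells 1 and 4 against 10 and 4. Too few UMIs were present in these 2 classes for a test over mice, and C57BL/6 replicate 1 was again the lowest.

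Il17a, the defining cytokine of iNKT17 cells, was found mainly in its class. iNKT17-like cells had 69.2 and 46.3 CPM in C57BL/6 and 24.6 and 60.3 CPM in Hivep3-/-, with overlap between the genotypes (log2 difference -0.51, SE 0.37, adjusted p = 0.942). The lowest value came from few cells: 22 of the 27 Il17a UMIs of Hivep3-/- replicate 1 were in 1 cell, and 2.26% of its iNKT17-like cells were positive, against 14.4%, 18.8% and 13.8% in C57BL/6 replicates 1 and 2 and Hivep3-/- replicate 2. After thinning these shares were 2.27% against 10.2%, 11.02% and 6.2%. Among iNKT1-like and stage 0-like cells no library had an Il17a UMI, which allows at most 0.128% to 0.197% of thinned iNKT1-like cells. Cycling-like cells held 21 and 9 Il17a UMIs in C57BL/6 and none in Hivep3-/-, but 14 of the 21 lay in 1 cell of cluster 10, so no fold is given.

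Few Hivep3-/- cells were rich in Il4, Il13 or Csf1 transcripts. Cells with at least 5 Il4 UMIs numbered 241 and 105 in C57BL/6 and 18 and 11 in Hivep3-/-. For Il13 the numbers were 201 and 52 against 3 and 2, and for Csf1 31 and 5 against 0 and 0. Ifng was different, with 131 and 36 cells against 43 and 142, or 1.81% and 0.986% of the cells against 0.935% and 3.41%, so that the Hivep3-/- libraries were the lowest and the highest. Among Il4-positive cells 56.1% and 56.4% held a single Il4 UMI in C57BL/6, against 67.6% and 70.3% in Hivep3-/-. Hivep3-/- cells were deeper over whole libraries but not in every class. Median depths overlapped in iNKT2-like cells (7911.5 and 10135 against 9334 and 9017 UMIs) and in cycling-like cells (12496 and 16069 against 13084.5 and 13778.5). These counts are over whole libraries, and the part of depth and class make-up in them was not tested. The cell richest in Il4 held 51 and 36 UMIs in C57BL/6 against 30 and 13 in Hivep3-/-, and the one richest in Il13 held 88 and 34 against 121 and 14.

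**Figure D4:**
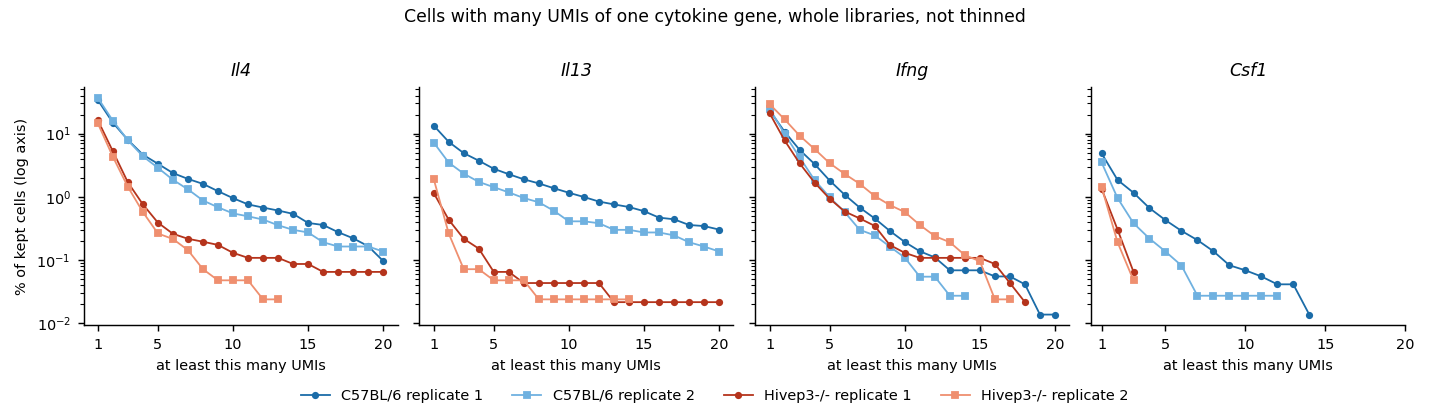
Percent of kept cells (log axis) with at least the number of UMIs on the horizontal axis, for Il4, Il13, Ifng and Csf1 in each library, not thinned. The Il4 and Il13 curves of both Hivep3-/- libraries lie below those of the C57BL/6 libraries over the whole axis, and their Csf1 curves end at 3 UMIs, while the Ifng curves of the genotypes interleave.

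Co-detection was measured as the number of thinned cells with UMIs of both genes over the number that independence within each class and unnamed cluster would give. Il4 and Il13 met in the same cell in 133 cells of C57BL/6 replicate 1 where 80.8 were given by independence and in 30 of replicate 2 where 19.5 were, ratios of 1.65 and 1.54. In Hivep3-/- only 6 and 1 such cells were found, with 1.05 and 0.92 given by independence, which is too few to read a ratio from. Il4 met Csf1 1.92 and 1.51 times as often as under independence in C57BL/6 (51 and 10 cells). Il4 and Ifng, the type 2 and type 1 cytokines, met in 125, 48, 14 and 18 cells, ratios of 0.996, 0.777, 0.663 and 0.682 in C57BL/6 replicates 1 and 2 and Hivep3-/- replicates 1 and 2. Independence was taken over the iNKT1-like class as a whole. Within it cluster 2 had less Il4 and more Ifng than cluster 0 in every library. The part of such unlike clusters in these ratios was not tested. Ifng and Tnf gave ratios of 1.21 and 0.855 against 1.16 and 1.07, so their sign differed between the C57BL/6 mice. The pairs of Il4, Ifng or Tnf with Ltb all lay between 0.959 and 1.09. Cells of 1 library share their depth and source, so these ratios are descriptions without a test.

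**Figure D5:**
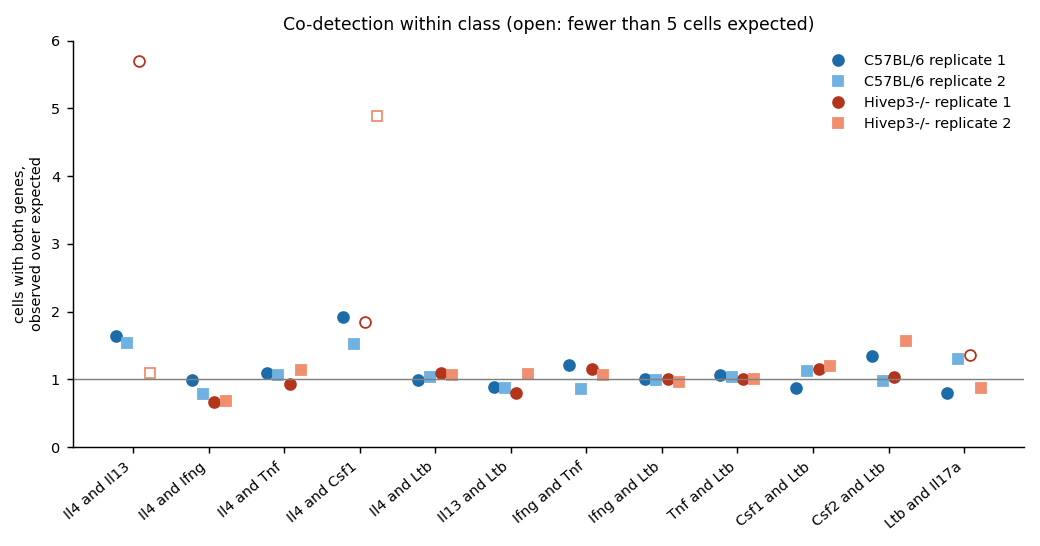
Observed over expected number of cells with UMIs of both genes, within class and after thinning, 1 point per library, with open points where fewer than 5 cells were expected. Il4 with Il13 lies at 1.65 and 1.54 in the C57BL/6 libraries, Il4 with Ifng at or below 1 in all 4, and the pairs of Il4, Ifng and Tnf with Ltb near 1.

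In some classes, cells that held a cytokine transcript differed in genes that respond to TCR signals. Summed over 11 such genes (Nr4a1, Egr2, Cd69, Tnfrsf9, Ccl4, Xcl1 and others), Ifng-positive iNKT1-like cells had 1544, 929, 1301 and 1616 CPM in C57BL/6 replicates 1 and 2 and Hivep3-/- replicates 1 and 2, against 1217, 878, 1001 and 1352 CPM in Ifng-negative ones. Ccl4, a chemokine of activated lymphocytes, was at 101, 42.1, 45.1 and 88.1 CPM in the positive and 47.3, 28.2, 15.6 and 35.3 CPM in the negative cells, higher in all 4 libraries. The class pools unlike clusters, and Ifng was higher in cluster 2 than in cluster 0 in every library. At resolution 0.4 Ccl4 was a leading gene of the late iNKT1 cluster. The part of cluster mix in these iNKT1-like values was not tested. Il13-positive iNKT2-like cells of C57BL/6 replicates 1 and 2 had Tnfrsf9, the costimulatory receptor 4-1BB, at 60.0 and 66.6 CPM against 32.4 and 23.8 CPM in Il13-negative ones. For Csf1 the Tnfrsf9 values were 80.8 and 89.7 CPM in positive against 34.7 and 27.3 CPM in negative iNKT2-like cells. Il4-positive stage 0-like cells of C57BL/6 replicate 1 had the lower sum over the 11 genes, at 673 CPM against 1161 CPM in Il4-negative ones. That class too pools unlike clusters. Almost none of its Il4 UMIs lay in cluster 11, so the cells of that cluster were nearly all among the Il4-negative ones. The part of cluster mix in this stage 0-like gap was not tested, so it does not show whether the pattern was general. Positive iNKT2-like cells were deeper, at 9281.5 and 12356.5 against 7462 and 9641 median UMIs for Il13 in C57BL/6, and the part of depth was not tested. These lists come from cells of the same libraries and carry no test.

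Other genes of the cytokine system were tested in the same fits. Of 23 other cytokine genes, 15 could be tested over all cells, 1 was called higher and none lower (0.765% of all genes were called in either direction). The called gene was Tnfsf8, which encodes CD30 ligand, and this call was lost without C57BL/6 replicate 1 or Hivep3-/- replicate 1 (adjusted p up to 0.067). In iNKT1-like cells, where 2 of 12 were called higher (0.613% of all genes called), Tnfsf8 was at 5.22 and 4.64 CPM in C57BL/6 and 25.9 and 20.7 CPM in Hivep3-/- (log2 difference 2.16, SE 0.20, adjusted p = 0.00509), and Il2, the T cell growth factor, at 3.11 and 6.62 against 23.2 and 26.2 CPM (2.31, SE 0.32, adjusted p = 0.022, and 0.051 without Hivep3-/- replicate 2). In cycling-like cells 1 of 10 was called higher, again Tnfsf8 (2.55 and 0.669 against 17.0 and 20.1 CPM), and 1 lower, Tnfsf11, which encodes RANK ligand (32.4 and 34.3 against 5.54 and 10.8 CPM; -2.09, adjusted p = 0.00937; 4.25% of all genes called). None of 7, 11 and 8 tested genes was called in stage 0-like, iNKT2-like and iNKT17-like cells, where 0.449%, 0.497% and 0.105% of all genes were.

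Of 12 genes for receptors of the 8 cytokines none was called over all cells (0.765% of all genes were, in either direction). In cycling-like cells 2 of 8 tested were called higher, where 4.25% of all genes were called in either direction. Il4ra, the IL-4 receptor chain, was at 2.77 and 1.51 CPM in C57BL/6 and 12.3 and 14.7 CPM in Hivep3-/- (log2 difference 2.42, SE 0.35, adjusted p = 0.0105). Ifngr1 was at 31.2 and 29.3 against 77.9 and 61.4 CPM (1.03, adjusted p = 0.016, and 0.0543 without C57BL/6 replicate 1). Among 25 regulators of cytokine genes none of 24 was called over all cells. Zbtb16, which encodes PLZF, was lower in stage 0-like cells, at 223 and 184 against 73.1 and 75.7 CPM (-1.58, SE 0.17, adjusted p = 0.00304, called under all 12 alternatives). It was the 1 of 19 called there, against 0.449% of all genes in either direction. In cycling-like cells Maf (30.8 and 42.7 against 14.2 and 10.2 CPM), Rora (94.4 and 67.9 against 37.6 and 22.5 CPM) and Zbtb16 were called lower and Runx3 (26.0 and 23.3 against 79.5 and 47.9 CPM) higher, 4 of 23 against 4.25% of all genes. Of these Maf, which activates Il4 transcription in T helper 2 cells, was called under all 12 alternatives, while Zbtb16 was not called without C57BL/6 replicate 1 (adjusted p up to 0.313), at resolution 0.4 or when the highest doublet scores were removed. Runx3 was not called without either C57BL/6 library (up to 0.07), and neither Runx3 nor Rora (adjusted p = 0.054) when the cytokine genes were among the variable genes. Eomes, a T-box factor, was the 1 of 23 called in iNKT1-like cells (0.613% of all genes), at 0 CPM in both C57BL/6 libraries and 4.41 and 2.75 CPM in Hivep3-/-, a call lost without Hivep3-/- replicate 1.

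The 11 TCR response genes gave no call over all cells, where their median log2 difference was 0.45 against 0.03 for all genes. In cycling-like cells 3 of 10 were called higher, where 4.25% of all genes were called in either direction. Nr4a2, an immediate early gene, was at 2.48 and 3.35 CPM in C57BL/6 and 10.3 and 19.4 CPM in Hivep3-/-, a call lost without Hivep3-/- replicate 2. Cd69 was at 45.8 and 28.8 against 87.8 and 126 CPM and was called under all 12 alternatives, while the call of Xcl1 (15.0 and 12.5 against 70.8 and 35.6 CPM) ended at resolution 0.4 and when the highest doublet scores were removed. Egr3 was the 1 of 9 called in stage 0-like cells (0.449% of all genes), at 2.97 and 4.94 against 24.5 and 20.4 CPM (2.48, adjusted p = 0.0488), and 8 of 12 alternatives ended that call. None was called in iNKT2-like, iNKT17-like or iNKT1-like cells.

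Around the 8 genes, 102 other genes of the matrices start within 250 kb, and 43 of them could be tested over all cells. Pdlim4, a LIM domain gene whose start lies 181 kb from that of Csf2, was the 1 of 43 called there (0.765% of all genes), at 15.6 and 12.97 CPM in C57BL/6 and 0.585 and 0.993 CPM in Hivep3-/- (log2 difference -4.27, SE 0.33, adjusted p = 0.00659). It was also called lower in cycling-like cells, where 4 of 36 were called in either direction against 4.25% of all genes (34.5 and 42.7 against 3.56 and 3.48 CPM) and in iNKT2-like cells, as 1 of 32 against 0.497% (15.0 and 14.9 against 2.37 and 1.41 CPM), the last not without either Hivep3-/- library. In cycling-like cells Sept8, whose start is 99 kb from that of Il4, was lower too (13.4 and 13.7 against 4.35 and 2.46 CPM; -2.24, adjusted p = 0.0103). H2-Q2 and H2-Q6, near Tnf and Ltb, were called higher there, but they belong to a family of near-identical genes whose reads can be split by the counting. Among the neighbours that could be tested, no other was called in any class.

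Over 20 profiles (5 classes in 4 libraries), the level of each gene on the log2(CPM + 1) scale was set beside those of 7278 genes that averaged 10 CPM or more. Il4 was most like Idh2 (Pearson r = 0.883), Cd74 (0.848) and Rps2 (0.846). For Il13 the nearest genes were Lztfl1 (0.910), Drosha (0.889) and Ccr9 (0.886), and for Csf1 Myo6 (0.852), Ptp4a2 (0.803) and Cela1 (0.758). Ifng followed Arl4d (0.936), Ifitm10 (0.934) and Clta (0.917), Tnf followed Arl4c (0.962), Ncf4 (0.954) and Il18r1 (0.950), and Ltb followed Acsbg1 (0.988), Itgae (0.985) and Il7r (0.978). Il17a was nearest to the iNKT17 gene Il1r1 (0.986), Kcnk1 (0.989) and Stab2 (0.987), and the sparse Csf2 to Dennd1b (0.859), Cyhr1 (0.853) and Irak4 (0.849). Among the 8 themselves, Tnf and Ltb were most alike (0.883), then Csf2 and Ltb (0.720) and Il4 and Csf1 (0.703), while Il4 and Il13 gave 0.627. The profiles hold both genotypes, so a shared genotype difference can raise a value just as a shared class pattern can. The profiles also share libraries and depth, so these values describe likeness and carry no test.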

How the data were processed

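Transcripts were measured by droplet single-cell RNA sequencing with 5′ chemistry in 4 libraries of sorted thymic iNKT cells, 2 per genotype, grouped by the sample labels. The deposited values are raw counts of UMIs for each gene in each barcode, as the authors' counting gave them and with no normalization; the submitters' processing notes name Cell Ranger 3.1.0, Seurat 3.1.4 and the build mm10. A 5′ count does not tell isoforms apart and weighs deep cells more. Kept cells had at least 500 and fewer than 4100 genes, at least 1000 UMIs and under 6% mitochondrial UMIs, after the study's methods.

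Clusters (resolution 0.8, 2000 variable genes, 30 components, mutual nearest neighbour correction written anew after the published algorithm) were made in R 4.3.3 with Seurat 5.3.0, irlba 2.3.5.1 and RANN 2.6.2, without the 8 genes. A class needed at least 3 markers among a cluster's 50 leading genes. Scrublet in scanpy 1.11.5 marked 0, 4, 1 and 5 cells, too few to be credible, and all cells stayed in.

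Counts summed per library and class (810219 to 14290123 UMIs in the 5 classes) were tested with edgeR 4.0.16 (filterByExpr, TMM, two-sided quasi-likelihood test, Benjamini-Hochberg adjustment). Classes were set against each other by an interaction term with library as a block. Levels in the text are CPM on unscaled sums. Shares after thinning to 2000 UMIs were set against each other by an exact permutation test (two-sided), and single shares have exact Clopper-Pearson 95% intervals. The limit given for a share of 0 is 3 cells over the number of cells. The scripts were tested on simulated data. Promoters came from RefSeq on GRCm38.p6 and gene positions from GENCODE vM21, in which 30934 of the 31053 genes were found.

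The named genes are the 8 members, the 3 genes most like each over 20 profiles, and up to 6 called genes of each of 5 lists (other cytokines, receptors, regulators, TCR response, neighbours within 250 kb). Members and lists were chosen with earlier results of these data known. Alternatives were RLE scaling, no low-count filter, DESeq2 1.42.0, the replicate number as a block, each library left out, resolutions 0.4 and 1.2, the cytokine genes allowed into clustering, the top 5% of doublet scores removed, and thinning to 1000 UMIs or none. Fits of single clusters and alternatives of the lists were added after the data were seen.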

Additional observations from a re-analysis of the deposited data

Results flagged for a closer look

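The genotype difference of Csf1, Il13, Ifng, Tnf, Ltb and Il4 depended on the class for the pairs of classes given here, as tested by a class-by-genotype term fitted over 2 classes at a time, blocked on the library (edgeR's quasi-likelihood test, Benjamini-Hochberg adjustment over all genes; 2 mice per genotype). Set against iNKT1-like cells, the log2 difference of iNKT2-like cells was lower by -4.93 for Csf1 (SE 0.52, adjusted p = 7.8e-06), by -2.94 for Ifng (SE 0.28, adjusted p = 1.96e-06), by -2.03 for Il13 (SE 0.43, adjusted p = 0.00639) and by -0.49 for Tnf (SE 0.13, adjusted p = 0.039). That of Ltb was higher by 0.61 (SE 0.08, adjusted p = 7.03e-05), with every Hivep3-/- library above the C57BL/6 libraries in iNKT2-like cells and below them in iNKT1-like cells. In cycling-like cells, again set against iNKT1-like cells, the difference was lower by -3.62 for Csf1 (SE 0.44, adjusted p = 0.00093), by -3.26 for Il13 (SE 0.44, adjusted p = 0.00171), by -1.49 for Tnf (SE 0.18, adjusted p = 0.00093) and by -0.88 for Il4 (SE 0.17, adjusted p = 0.0115). The Il13 term rests on low levels in iNKT1-like cells, at most 3.44 CPM, and the Tnf term of iNKT2-like cells was not called at resolution 1.2 (adjusted p = 0.0566). No term was refitted with a library left out, so the part of the only female library in them was not tested. The iNKT1-like class held unlike mixtures of clusters in the genotypes, and the part of this in the terms was not tested either. For Ltb the log2 difference was -0.24 in cluster 0 and -0.02 in cluster 2 of that class. The interaction terms of Ifng (-0.38, adjusted p = 0.677) and Ltb (-0.19, adjusted p = 0.591) between cycling-like and iNKT1-like cells did not pass.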

How the results depend on the processing

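The 13 called differences of the 8 genes (10 in classes and 3 over all cells) were lower in Hivep3-/- under all 147 refits, and 123 of these were called. Over all cells 1 to 3 genes were called when single libraries were left out, in stage 0-like cells 1 to 2, in iNKT2-like cells 0 to 4 and in iNKT17-like cells 1 to 2. Each of these fits leaves 1 library in a genotype, which is assumed to vary as the other genotype does. The 1 call in stage 0-like cells became 0 with RLE scaling, DESeq2, resolution 0.4, resolution 1.2 or the cytokine genes among the variable genes, and 2 without the low-count filter or the highest doublet scores. Without the low-count filter 1 gene, Il4, was called in iNKT17-like cells. Over all cells 2 genes, Il4 and Il13, were called when the highest doublet scores were removed, and the call of Csf1 was lost. With the replicate block 3 genes were called over all cells and 2 in the stage 0-like class, where Il13 was added. The block left 4 calls in each of the cycling-like and iNKT2-like classes, 1 in iNKT1-like and 0 in iNKT17-like cells, and changed no other call. The labels give no shared day or litter for a replicate number, and the deviations of same-numbered libraries correlated at 0.0009 to 0.184, so the numbers were not taken as pairs.

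Leaving out single libraries turned the direction of uncalled differences only. Over all cells Ifng ranged from -0.631 to 0.393, Tnf from -0.292 to 0.195, Csf2 from -0.066 to 2.67 and Ltb from -0.258 to 0.258. In cycling-like cells Ifng ranged from -1.05 to 0.164 and in iNKT2-like cells Tnf from -0.432 to 0.209. In iNKT17-like cells Tnf ranged from -0.091 to 0.378, Ltb from -0.05 to 0.374 and Il17a from -1.36 to 0.029. In iNKT1-like cells Ifng ranged from -1.33 to 0.21 and Csf2 from -0.236 to 1.09. Ifng over all cells was 0.029 without the highest doublet scores. At resolution 1.2 Ifng in cycling-like cells was 0.33, and its interaction term with iNKT1-like cells 0.884 and that of Ltb 0.107. The share difference of Csf2 in iNKT1-like cells was -0.006 percentage points after thinning to 1000 UMIs, and that of Ltb there 3.51 points without thinning, where Hivep3-/- cells were deeper. Without thinning the mean Il4 and Il13 co-detection ratio of C57BL/6 was 1.32 in place of 1.59. The cause was not tested for any of these. Csf2, with at most 80 UMIs per library, is limited by depth.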
